A study of Mus musculus with 8 samples.

Results

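The respiratory chain and the ATP synthase were followed across 8 RNA sequencing libraries of CD4 T cells from mouse spleen. Members are the protein coding genes whose symbols begin with Nduf, Sdha to Sdhd, Uqcr, Cox4 to Cox8, Atp5, mt-Nd, mt-Co, mt-Cytb or mt-Atp. Of the 54837 identifiers in the table, 124 matched by symbol and 111 of these were protein coding, 98 in the nuclear genome and 13 in mitochondrial DNA. The nuclear members comprise 84 subunits and 14 assembly or other factors, and 104 members (91 nuclear and all 13 mitochondrial) passed the filter on low counts.

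All mice had received tamoxifen for 5 days. They all carried Foxp3-eGFP-Cre-ERT2, an allele that places eGFP and a Cre recombinase needing tamoxifen under control of Foxp3. The transgenic mice came from crossing it with FSF-TIM-3, the TIM-3 transgene, whose cells were sorted by TIM-3 and FLAG. GFPhi (n = 3) were sorted from the cross as TIM-3+FLAG+GFP+FoxP3+, and GFPlow (n = 3) from the cross as TIM-3+FLAG+GFP-FoxP3-. WT (n = 2) were sorted as TIM-3-FLAG-GFP+FoxP3+ and lacked FSF-TIM-3. The sources used here do not give the age of the mice, or whether libraries of a group came from separate mice. P-values may therefore measure only the spread between these libraries, which may be technical in part, although library 3 of each transgenic group differs in sex-linked genes from libraries 1 and 2. In bulk libraries, fewer cells of a type and less RNA per cell cannot be told apart.

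The chain passes electrons from NADH (complex I) and succinate (complex II) through complex III to oxygen at complex IV, and the resulting proton gradient drives ATP synthase, complex V. Complexes I, III, IV and V are built from subunits of both genomes, whereas complex II is encoded by nuclear genes alone. In T cells oxidative metabolism is known to support regulatory and memory cells, and activation is known to raise mitochondrial gene expression.

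Total counts ran from 44446215 to 55388756 per library, and levels are given as CPM, counts scaled by library size and TMM factor. WT library 1 stood apart from the other 7. Counts were found in 18599 genes there against 21248 to 22185 elsewhere, and 6.54% of its counts were mitochondrial against 2.355% to 2.78%. In the check of labels, Havcr2 (TIM-3) averaged 1464 ± 361 CPM in GFPhi (SD, n = 3) and 308 ± 210 CPM in GFPlow, beside WT values of 0.876 and 0.172. Foxp3 stood at 69.7 ± 10.5 CPM in GFPhi, 3.08 ± 1.53 CPM in GFPlow, and 41.7 and 63.2 CPM in WT. Platelet markers (10 genes) summed to 48.4 CPM in WT library 1, 4.52 in WT library 2 and 0.619 to 9.71 in the transgenic libraries. The 6 myeloid markers summed to 237 CPM in GFPlow library 3 and to 1.62 to 34.1 in the other 7 libraries. The sum of 4 NK cell markers was 20.4, 18.5 and 49.5 CPM in GFPlow against 6.3, 4.67 and 2.21 CPM in GFPhi. The 4 plasma cell markers summed to 159 to 190 CPM in GFPhi and 111.7 to 135 CPM in GFPlow, and the 4 stromal markers to 98.2 to 113 CPM in GFPhi and 139 to 164 CPM in GFPlow. In most libraries these sums rest on fewer than 4 genes. Stromal markers without a read numbered 2 or 3 per library (Col3a1 and Dcn had none in any). Plasma cell markers without a read numbered 0 to 2 in the transgenic libraries and 3 in WT library 1, and NK cell markers 0 to 2. The sums do not tell which cells expressed these genes. The 6 T cell markers were detected in every library and summed to 11430 CPM in WT library 1 and 5584 to 6366 CPM elsewhere, although Cd4 was lower there (109 CPM against 288 to 436) and so were Cd3e and Trac. Libraries 1 and 2 of both transgenic groups and WT library 1 held the Y-linked Ddx3y (170 to 229 CPM) and almost no Xist. Library 3 of both transgenic groups held Xist (237 and 184 CPM) and no Ddx3y. WT library 2 held both, Xist at 242 CPM and Ddx3y at 6.16 CPM. The part of these features in the results below was not tested. Comparisons that use WT library 1 are therefore also given without it.

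Summed per transcript length and scaled to a fixed total (TPM), the nuclear subunits of a complex kept a narrow range over the 6 transgenic libraries. Complex I stood at 11230, 11780 and 11210 TPM in GFPhi and at 10870, 10700 and 11340 TPM in GFPlow, so the groups overlapped. Complex II was the lowest, at 1123 to 1163 TPM in GFPhi and 1093 to 1162 TPM in GFPlow. For complex III the values were 5039, 4982 and 4934 TPM in GFPhi and 4541, 4294 and 4716 TPM in GFPlow, and the groups did not overlap. Complex IV ran from 7034 to 7327 TPM in GFPhi and from 6602 to 7046 TPM in GFPlow. Complex V ran from 9211 to 9865 TPM in GFPhi and from 8673 to 9232 TPM in GFPlow, the highest GFPlow library lying just above the lowest GFPhi library. WT library 2 was close to GFPhi, at 11840, 1105, 5066, 7385 and 9618 TPM for complexes I to V. In WT library 1 the same sums were 23530, 947, 9408, 16980 and 16030 TPM, higher than in every transgenic library except for complex II, which was lower than in all of them. In CPM the order of complex II was the opposite, with 1500 in WT library 1 and 949.9 to 1041 in the transgenic libraries.

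**Figure D1:**
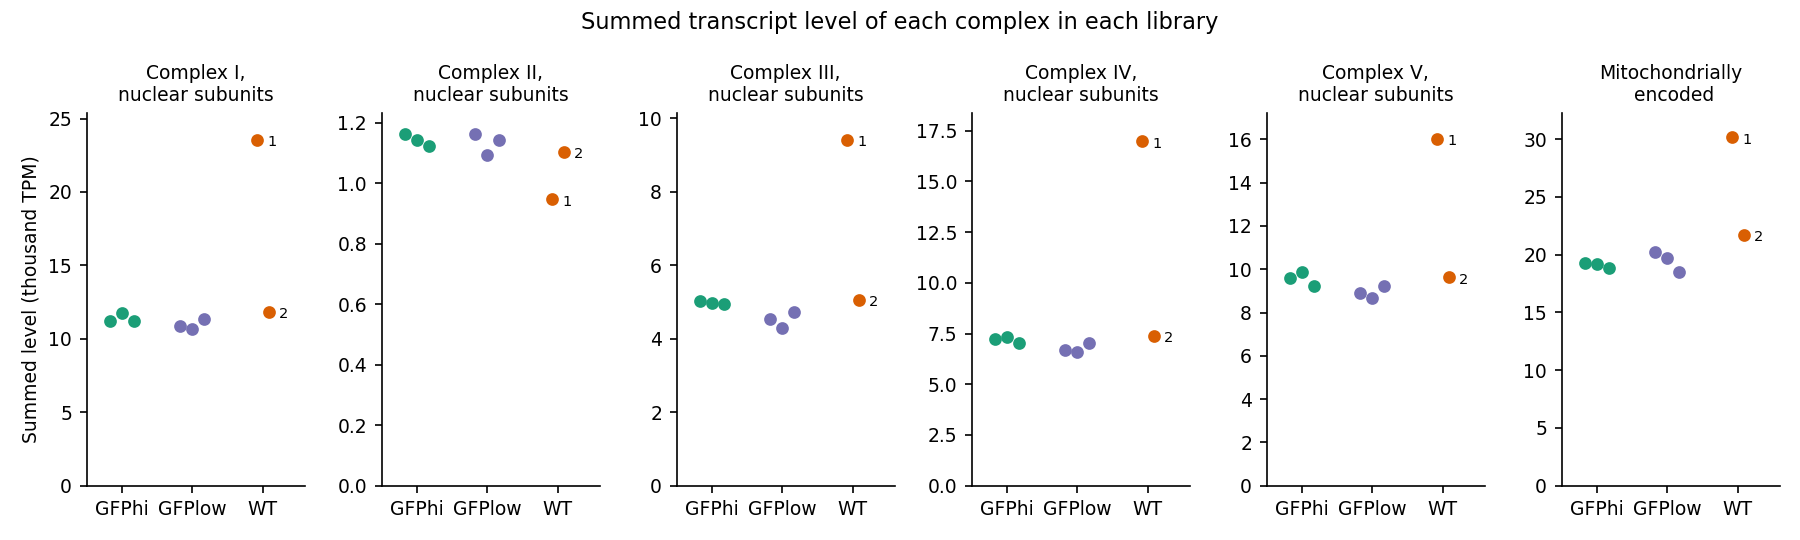
Summed level of the nuclear subunits of complexes I to V and of the 13 mitochondrially encoded members, in 1000 TPM, with 1 point per library and the WT libraries numbered. WT library 1 lies apart in every panel, below the others for complex II (947 TPM, though above them in CPM) and above them elsewhere, while WT library 2 lies near the transgenic libraries.

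The leading subunits of each complex were named by their level. By mean TPM over the 8 libraries the leading nuclear members of complex I were the small accessory subunits Ndufa3, Ndufa1 and Ndufa6, of which Ndufa3 stood at 851 ± 34.9 TPM (SD, n = 3) in GFPhi and 828 ± 27.1 TPM (SD, n = 3) in GFPlow. In complex II the iron-sulfur subunit Sdhb led with 482 ± 21.1 TPM (SD, n = 3) in GFPhi, ahead of the membrane anchor Sdhd and the flavoprotein Sdha, the latter at 230 ± 17.2 TPM. Complex III was led by the core protein Uqcrc1, the hinge protein Uqcrh and Uqcrb, with Uqcrc1 at 1270 ± 53.1 TPM in GFPhi. Complex IV was led by Cox4i1, a subunit that takes part in its regulation by ATP, at 1170 ± 44.2 TPM in GFPhi and 1100 ± 28.2 TPM in GFPlow, followed by Ndufa4 and Cox6b1. In complex V the catalytic beta subunit Atp5b (1260 ± 79.8 TPM in GFPhi) was followed by Atp5g3 of the c-ring and Atp5j of the stalk. These orders hold for the median length of a gene's protein coding transcripts and take in WT library 1. In GFPhi, Atp5c1 (840 TPM) lay above Atp5j (831), Uqcr11 (652) and Uqcr10 (632) above Uqcrb (621), and Cox6b1 (969) above Ndufa4 (897). In GFPlow, Atp5c1 (796 TPM) lay above Atp5j (766), Uqcr10 (551) above Uqcrb (516), and Sdha (258) above Sdhd (222). With the length of 1 principal transcript per gene, Ndufa7 took the place of Ndufa6 among the first 3, Uqcr10 that of Uqcrc1, and Cox6c and Cox8a those of Ndufa4 and Cox6b1. With union exon lengths the first 3 were Uqcr10, Uqcr11 and Uqcrb in complex III and Atp5b, Atp5c1 and Atp5a1 in complex V. In complex I they were Ndufa1, Ndufa2 and Ndufa3, and in complex IV Cox8a, Cox6b1 and Cox6a1.

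Where a subunit has tissue-specific isoforms, the libraries held mainly the broadly expressed form. Cox4i1 was counted at 568 to 678 CPM outside WT library 1, whereas its hypoxia-linked counterpart Cox4i2 had 2 reads in GFPlow library 1, 1 read in GFPlow library 3 and none elsewhere. The heart and muscle form Cox6a2 had 19 reads in GFPlow library 3 and none in the other 7, against 285 to 344 CPM for Cox6a1 outside WT library 1. Among the subunit 7a genes, Cox7a2 ran from 174 to 217 CPM outside WT library 1 and the muscle form Cox7a1 from 0.183 to 1.001 CPM. Cox6b2, known from testis, ran from 0.366 to 1.93 CPM there, beside 286 to 347 CPM for Cox6b1. No read was assigned to Cox7b2, Cox8b or Ndufa4l2 in any library, and Cox8c had 1 read in WT library 1. Cox4i2, Cox6a2, Cox7b2, Cox8b, Cox8c, Ndufa4l2 and a second Atp5o identifier (ENSMUSG00000116933, no counts) are the 7 members that were not tested. The 3 genes for the same mature c-ring protein differed: Atp5g3 stood at 1080 ± 69.3 TPM, Atp5g2 at 228 ± 13.6 TPM and Atp5g1 at 104 ± 3.77 TPM in GFPhi (SD, n = 3).

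The 13 mitochondrially encoded members fell into a well-counted and a poorly counted group. mt-Cytb, the cytochrome b of complex III, led with 5440 ± 219 TPM (SD, n = 3) in GFPhi and 5480 ± 128 TPM in GFPlow, beside mt-Co1, the catalytic subunit of complex IV, at 4930 ± 154 and 5040 ± 403 TPM. The complex I subunits mt-Nd1, mt-Nd2, mt-Nd4, mt-Nd5 and mt-Nd6 ran from 4130 ± 179 TPM down to 889 ± 23.8 TPM in GFPhi. The other 6 were hardly counted. mt-Co3 had 529, 785 and 515 reads in GFPhi, 625, 515 and 650 in GFPlow, and 3815 and 893 in WT, while mt-Co1 had 95.4 times as many reads in WT library 1 and 387 to 553 times as many in the other 7 libraries.

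The low counts fell mostly on genes with near-identical nuclear copies. All or nearly all 50-base windows of mt-Co2, mt-Co3, mt-Atp6, mt-Nd4l and mt-Nd3 (98.0% to 100%) also occur in another annotated gene, such as Gm28661, Gm28437, Gm10925, Gm10222 and Gm28438 on chromosome 1. The share was 62.2% for mt-Nd4, 51.1% for mt-Co1, 8.19% for mt-Nd2, 7.61% for mt-Nd5 and 0 for mt-Nd1, mt-Nd6, mt-Cytb and mt-Atp8. mt-Atp8 was nevertheless low, at 21 to 102 reads per library, and 43 of its 204 bases overlap mt-Atp6. How reads with more than 1 place in the genome were treated is not given in the sources used here, so levels of these 6 genes, and of mt-Co1 and mt-Nd4 in part, are uncertain. To show what this means for a read, 60 bases of mt-Co3 (bases 262 to 321 of its transcript, gene at chrM:8607-9390, + strand, GRCm38) are printed beside the same stretch of Gm28437 (chr1:24613189-24613971), which matches it at 783 of 783 aligned bases, and a stretch of mt-Nd2 (bases 667 to 726, gene at chrM:3914-4951, + strand) beside that of Gm13339 (chr2:22590024-22590533), with capitals at the bases that differ.
mt-Co3: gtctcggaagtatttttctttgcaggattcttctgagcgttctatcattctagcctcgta
Gm28437: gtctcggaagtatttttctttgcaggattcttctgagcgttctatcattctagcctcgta
mt-Nd2: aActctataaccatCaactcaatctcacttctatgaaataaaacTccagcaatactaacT
Gm13339: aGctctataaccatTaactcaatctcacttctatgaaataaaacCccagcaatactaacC
The mt-Nd2 window holds 4 mismatches, and over 510 aligned bases 17 differed. In counts, Gm28437 had 1484 to 2887 reads outside WT library 1, more than mt-Co3 in each of these libraries, whereas Gm13339 had 5 to 19 reads beside 52389 to 63650 for mt-Nd2.

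**Figure D2:**
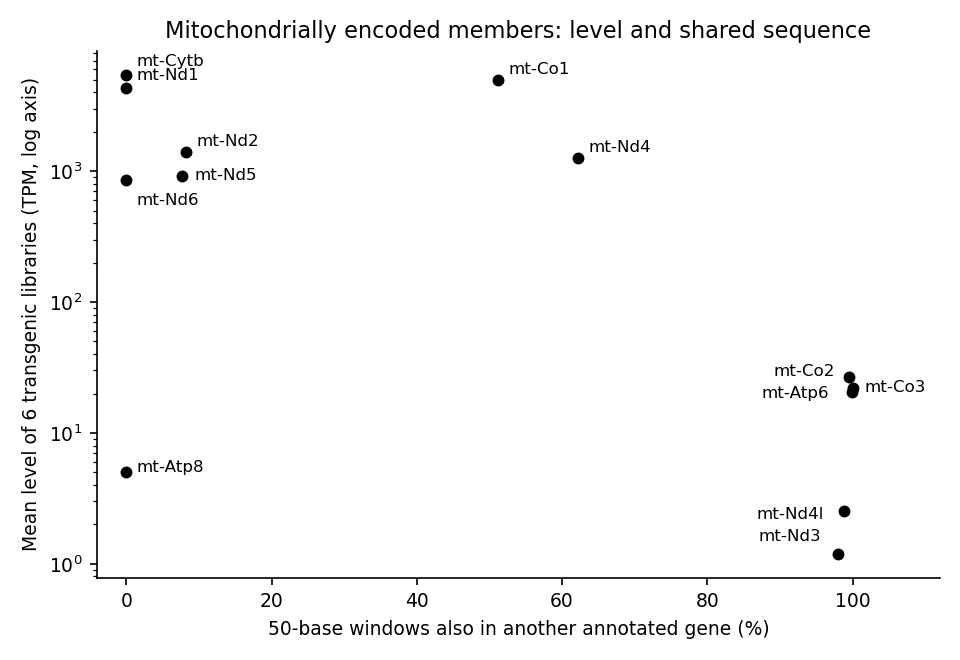
Mean level of the 13 mitochondrially encoded members over the 6 transgenic libraries (TPM, log axis) against the percent of their 50-base windows that also occur in another annotated gene. The 5 genes with 98.0% or more shared windows and mt-Atp8 lie far below the 7 others.

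Comparing the genomes, the mitochondrially encoded sum was 0.907, 0.886 and 0.908 times the sum of nuclear subunits (CPM) in GFPhi and 1.002, 1.007 and 0.887 times in GFPlow. The third GFPlow library, which holds the myeloid markers, thus lay within the GFPhi range. The ratio was 0.821 in WT library 1 and 1.015 in WT library 2. Per transcript length (TPM) it was 0.562, 0.546 and 0.561 in GFPhi and 0.628, 0.628 and 0.553 in GFPlow. WT libraries 1 and 2 stood at 0.45 and 0.62. In GFPhi library 1, 16380 of the 16420 CPM of the mitochondrial sum came from the 7 well-counted genes. The hardly counted genes, whose levels are uncertain, thus barely enter the ratio, which does not measure the balance of both genomes.

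GFPhi against GFPlow compares FoxP3+ with FoxP3- cells that both express TIM-3. edgeR's quasi-likelihood test (Benjamini-Hochberg adjusted) called no member, against 2.26% of the 18851 genes tested (1.63% higher and 0.626% lower in GFPhi). At an unadjusted p under 0.05 there was 1 member (background 11.6%). DESeq2 called 1 higher (background 4.63%) and limma voom 2 higher (6.94%). The spread between the WT libraries enters this fit. Without WT library 1, 7 members were called higher and 1 lower in GFPhi (background 5.35% and 4.3%), and without WT library 2, 8 higher and 1 lower (5.52% and 4.12%). With only the 6 transgenic libraries the calls were also 7 and 1 (6.87% and 5.48%). DESeq2 without WT library 1 called 18 higher and 2 lower (8.61% and 7.17%).

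The member with the smallest p was Sdhaf1 (ENSMUSG00000074211, chr7:30321406-30323895, - strand, GRCm38), an assembly factor that helps to place the iron-sulfur clusters of complex II. It stood at 45.0, 36.7 and 38.1 CPM in GFPhi, 25.1, 20.1 and 20.8 CPM in GFPlow, and 64.5 and 53.2 CPM in WT. In CPM every GFPhi library lay above every GFPlow library and below both WT libraries. In TPM the order against WT library 1 differed. Sdhaf1 stood at 22.4 ± 2.95 TPM (SD, n = 3) in GFPhi, 12.5 ± 1.56 TPM in GFPlow, and 19.2 and 29.3 TPM in WT libraries 1 and 2. The log2 fold change of GFPhi over GFPlow was 0.86 ± 0.18 (SE), with an adjusted p of 0.0561 in edgeR's test, and 0.85 ± 0.13 with an adjusted p of 0.00616 without WT library 1. Of its exonic bases, 69.6% overlap E130208F15Rik on the opposite strand, a gene to which no read was assigned in any library. The strand setting of the counting is not given, so how reads in the shared bases were assigned is unknown. The absence of reads thus does not show that E130208F15Rik is silent, and the level of Sdhaf1 is uncertain.

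The next smallest p-values belonged to Atp5d (0.31 ± 0.17, adjusted p = 0.572 in edgeR's test), Cox6b2 (1.15 ± 0.73, adjusted p = 0.712), Atp5s, a coupling factor of complex V (0.37 ± 0.24, adjusted p = 0.736) and Sdhaf2, which attaches the flavin to Sdha (0.26 ± 0.18, adjusted p = 0.756). All 4 complex II assembly factors had log2 fold changes above 0, with a median of 0.21.

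The other members called without WT library 1 (edgeR, Benjamini-Hochberg) were spread over 4 complexes and had smaller differences. Of complex V, Atp5g1, 1 of the 3 c-ring genes, stood at 202, 201 and 193 CPM in GFPhi and 154, 154 and 156 CPM in GFPlow. Its log2 fold change was 0.36 ± 0.05 (adjusted p = 0.00531). Atp5d, the delta subunit of the F1 stalk, stood at 396 ± 11.8 CPM (SD, n = 3) in GFPhi against 319 ± 19.1 CPM in GFPlow, a log2 fold change of 0.31 ± 0.06. For both genes every GFPhi library lay above every GFPlow library. Uqcr11, a small subunit of complex III, stood at 201, 210 and 211 CPM in GFPhi against 155, 153 and 170 CPM in GFPlow, a log2 fold change of 0.38 ± 0.06 (adjusted p = 0.00928). In complex I, the iron-sulfur core subunit Ndufs8 had a log2 fold change of 0.36 ± 0.08 and the accessory subunit Ndufb6 one of 0.30 ± 0.07. Cox7b of complex IV had one of 0.24 ± 0.06. The only member called lower in GFPhi was Cox7a2l, which takes part in joining complexes III and IV into supercomplexes, at 160, 174 and 166 CPM in GFPhi against 199, 200.3 and 201 CPM in GFPlow (-0.27 ± 0.06, adjusted p = 0.0207). These 7 genes had adjusted p-values of 0.572 or more with all 8 libraries.

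As a group, 66 of 91 nuclear members had a log2 fold change above 0 (background 51.2%), with a median of 0.12 beside 0.01 for all genes tested. All 3 GFPhi libraries lay above all 3 GFPlow libraries for 36 of 104 members (background 16.0%) and below for 9 (background 14.0%). By complex, the medians of nuclear subunits were 0.07 for I (23 of 36 above 0), 0.00 for II (2 of 4), 0.14 for III (7 of 8), 0.16 for IV (11 of 13) and 0.13 for V (13 of 16). The 7 well-counted mitochondrially encoded members had a median of 0.00, from -0.11 for mt-Nd1 to 0.13 for mt-Nd5, and 4 of 7 above 0. Differences of this size also varied with transcript length. Nuclear members under 600 bases had a median of 0.17 and those of 1000 to 2000 bases one of 0.02, and the Spearman correlation of fold change with length was -0.259 over the 91 nuclear members (which share their libraries) and -0.029 over 12608 other protein coding genes. With a length trend removed from each library, the fold changes of all genes moved by a median of -0.11 and the nuclear median became 0.02.

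**Figure D3:**
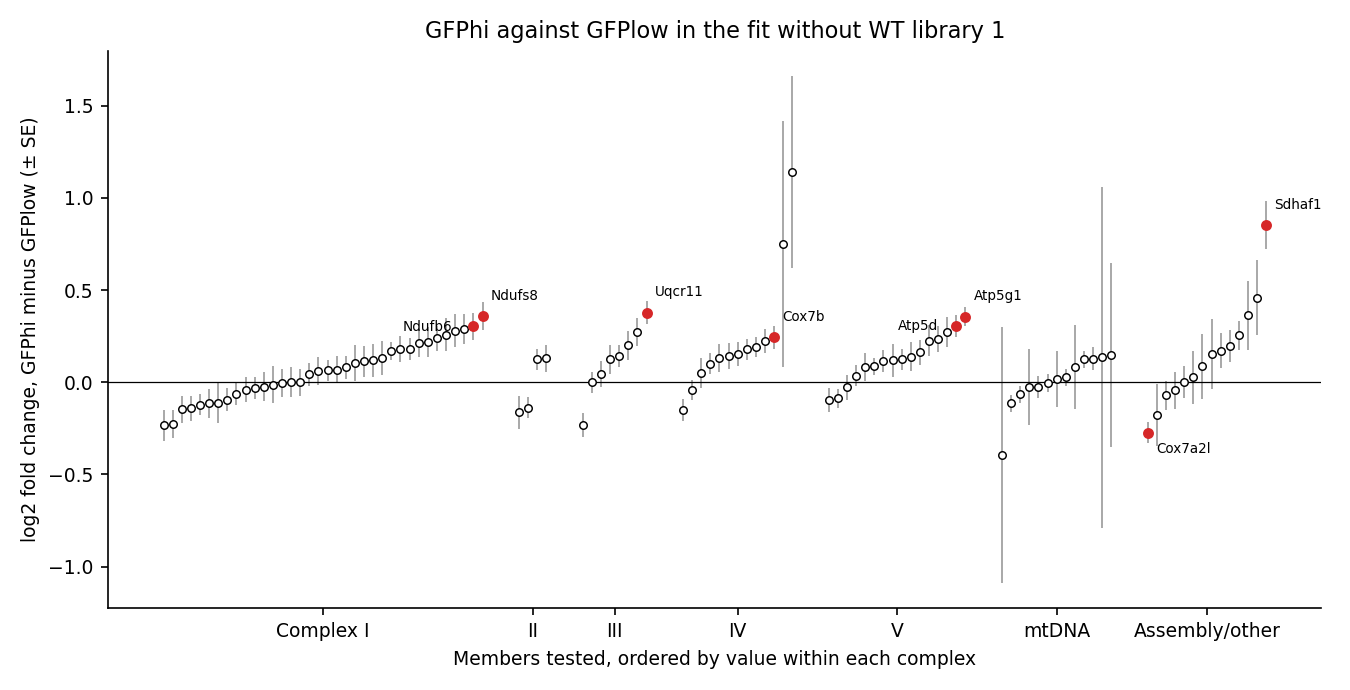
Log2 fold change of GFPhi over GFPlow ± SE for the 104 members tested, in the edgeR fit without WT library 1, ordered within each complex. Filled points are the 8 members past an adjusted p of 0.05, 7 above 0 and Cox7a2l below, and the mitochondrially encoded members (mtDNA) scatter around 0.

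**Figure D4:**
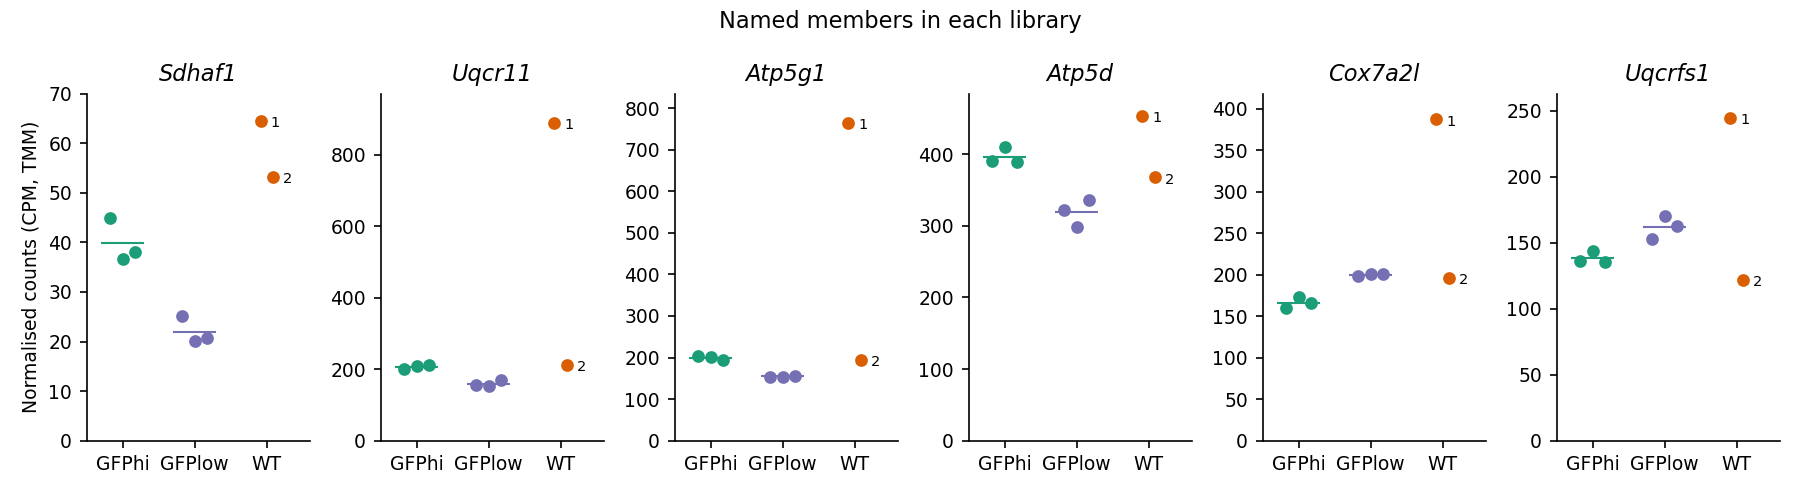
Normalised counts (CPM) of 6 members in each library, with a line at the mean of each transgenic group and the WT libraries numbered. Sdhaf1, Uqcr11, Atp5g1 and Atp5d lie higher in GFPhi than in GFPlow, Cox7a2l and Uqcrfs1 lie lower, and WT library 1 is the highest point in all 6 panels.

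WT library 1 differed from the transgenic libraries by subunit rather than by complex, and the difference went with transcript length. Of 91 nuclear members, 83 lay above all 6 transgenic libraries and 8 below (background over all genes 32.1% and 37.0%), and none lay within their range. Those below included Ndufs1 and Ndufv1 of the complex I core, Sdha, Uqcrc1, Uqcrc2, and the F1 subunits Atp5a1 and Atp5b, and none of them had a principal transcript under 1000 bases. Of the members of 1000 to 2000 bases 23 of 28 had a log2 ratio to the transgenic mean above 0 (median 1.18), of those of 2000 to 4000 bases 6 of 9 (median 0.44), and of those over 4000 bases 3 of 3 (median 1.98). All 51 members with principal transcripts under 1000 bases lay above, with log2 ratios to the transgenic mean of 0.35 to 2.73. Other short protein coding genes were also mostly higher there. Under 600 bases 160 of 189 lay above 0 (median 1.97, members 2.29), and at 600 to 1000 bases 530 of 660 (median 1.44, members 2.08). At 1000 to 2000, 2000 to 4000 and over 4000 bases the medians of other genes were 0.12, -0.70 and -0.53. Atp5b had a log2 ratio of -0.97, at 868 CPM in WT library 1 against 1621 to 1874 CPM in the transgenic libraries. Cox6c, a short subunit of complex IV, stood at 1986 CPM against 279 to 347 CPM.

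Complexes made of long and short subunits split in WT library 1. Core over accessory subunits of complex I gave a CPM ratio of 0.129 there, against 0.270 to 0.296 in the transgenic libraries and 0.276 in WT library 2. F1 core over the other nuclear subunits of complex V gave 0.400 against 1.36 to 1.44, and 1.34 in WT library 2. Per transcript length (TPM) the complex I ratio was 0.0886 in WT library 1 against 0.192 to 0.208 in the transgenic libraries. That of complex V was 0.309 against 0.673 to 0.701, so only in CPM did the F1 core exceed the other subunits. The median log2 ratio to the transgenic mean was 0.59 for the 4 complex II subunits and 2.08, 2.22, 2.14 and 1.92 for complexes I, III, IV and V. Among the 7 well-counted mitochondrial genes the ratio was 1.97 for mt-Nd1 (957 bases), 1.65 for mt-Nd2 (1038), 1.65 for mt-Cytb (1144), 1.39 for mt-Nd4 (1378), 1.11 for mt-Co1 (1545) and 0.76 for mt-Nd5 (1824), falling with length. mt-Nd6 (519 bases), the only protein encoded on the other strand, was outside that order at 1.62. By Spearman correlation, described here without a test, the ratio of WT library 1 went with length at -0.677 over the 91 nuclear members and -0.193 over 12608 other protein coding genes. The trend was weaker in WT library 2, at -0.29 and -0.054.

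Scaling sets the height of these values. By total counts instead of TMM all log2 ratios of WT library 1 would be lower by 0.60. As a share of all counts, nuclear members took 4.096% in WT library 1 and 1.848% to 2.09% elsewhere, and complex II 0.104%, within the transgenic range of 0.1001% to 0.11%. The F1 core of complex V took 0.3025%, below the transgenic 0.3764% to 0.4337%, although its summed CPM of 4363 lay above their 3572 to 4167.

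**Figure D5:**
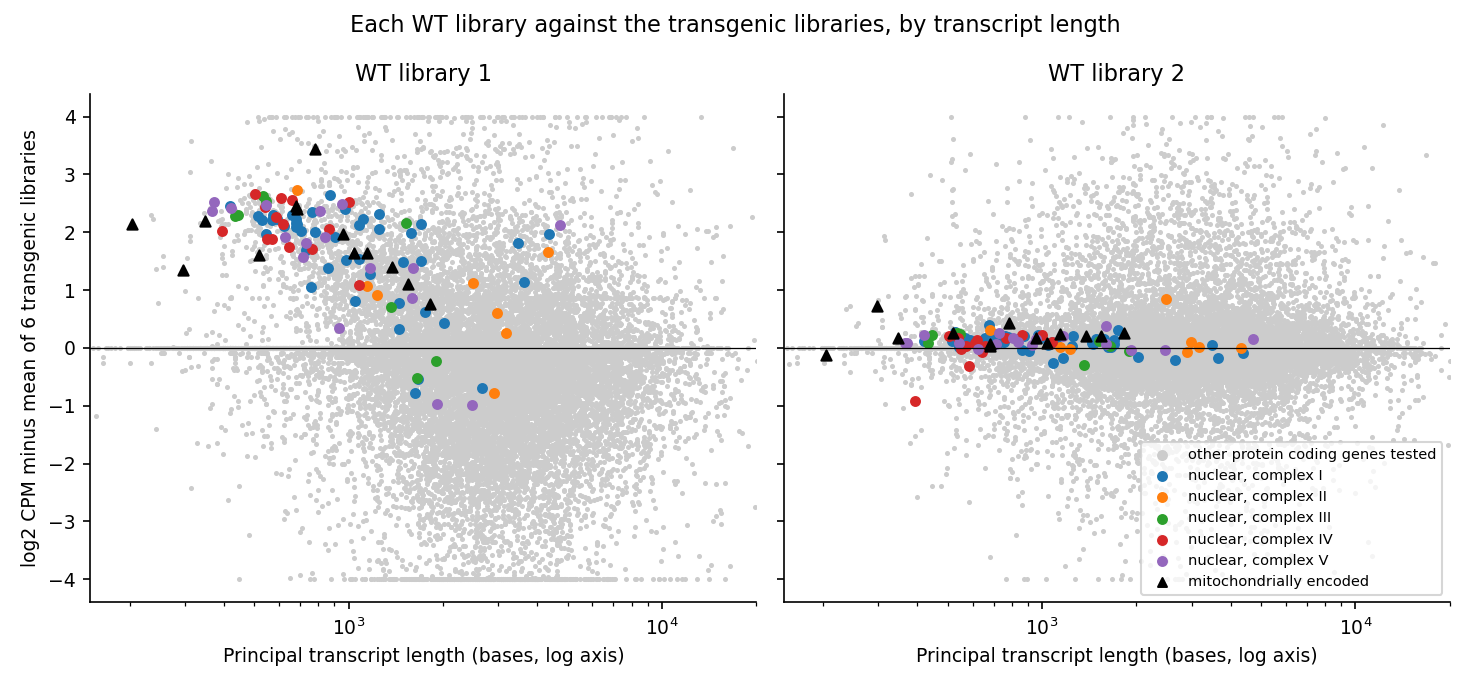
Log2 CPM of each WT library minus the mean of the 6 transgenic libraries against principal transcript length (log axis), for nuclear members coloured by complex, mitochondrially encoded members (triangles) and other protein coding genes (grey, drawn at ±4 where beyond). In WT library 1 members below 1000 bases lie at 0.35 to 2.73, those of 1000 to 2000 bases have a median of 1.18 and reach 2.52, and the 3 over 4000 bases lie at 1.65 to 2.12, whereas members in WT library 2 lie mostly near 0.

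WT library 2 lay within the range of the transgenic libraries for 60 of 91 nuclear members, above all 6 for 27 and below for 4 (background 15.6% above and 14.1% below). None of the 4 complex II subunits lay outside the range. The 7 well-counted mitochondrial genes all lay above all 6 transgenic libraries, with log2 ratios of 0.08 for mt-Nd2 to 0.26 for mt-Nd5. mt-Cytb, for example, stood at 5258 CPM against 4183 to 4725 CPM, and mt-Nd6 at 375 CPM against 294 to 335 CPM. The 13 mitochondrially encoded genes took 2.016% of the counts of this library, against 1.685% to 1.835% in the transgenic libraries. For the nuclear Rieske iron-sulfur subunit Uqcrfs1 of complex III the order was the opposite, at 122 CPM in WT library 2 against 136 to 144 CPM in GFPhi and 153 to 170 CPM in GFPlow.

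GFPhi against WT compares FoxP3+ cells with and without TIM-3. Sorting gates and genotype differ together and cannot be told apart. No member was called by edgeR, as no gene was (background 0.0%), while 74 of 104 members had an unadjusted p under 0.05 (background 13.7%). Even Havcr2, with a log2 fold change of 11.6, was not called in this edgeR test (adjusted p = 0.121). The absence of calls therefore does not show that members were alike. limma voom called none and DESeq2 called 55, all lower in GFPhi (background 1.67% lower). The smallest p-values belonged to mt-Co3, the complex II assembly factor Sdhaf4, and the subunits Ndufb3, Uqcrh and Ndufa7. Sdhaf4, for example, stood at 43.1, 39.1 and 41.9 CPM in GFPhi, with WT at 274 and 51.3 CPM. Its log2 fold change of -1.97 ± 0.54 (SE, adjusted p = 0.348) became -0.31 ± 0.12 (adjusted p = 0.955) without WT library 1. The median of nuclear members was -1.26 with both WT libraries and -0.04 without library 1, and that of mitochondrial members -1.10 and -0.20. Without WT library 1 edgeR called none (0.0%) and DESeq2 none (0.292% higher and 0.0487% lower), and without WT library 2 edgeR called 8 higher and 90 lower (background 24.1% and 16.0%).

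GFPlow against WT shares libraries with both comparisons above. edgeR called 1 member, Sdhaf1, lower in GFPlow, against 3.3% of all genes (2.23% lower). Its log2 fold change was -1.42 ± 0.20 (SE, adjusted p = 0.00935), with all 3 GFPlow libraries at 25.1 CPM or less and both WT libraries at 53.2 CPM or more. The value was -1.27 ± 0.17 (adjusted p = 0.00575) without WT library 1. The call was lost without GFPlow library 2 (adjusted p = 0.0579) and without GFPlow library 3 (0.0557). With only the 5 libraries compared it was also lost (0.0993, background 0.0965% higher and 0.0908% lower). The replicate block, a term for the library number, gave 0.0503. That block joins WT and transgenic libraries by number, which no label links, so it cannot weigh the call. DESeq2 called 62 members lower (background 11.1%) and limma voom none (0.0265% higher and 0.355% lower).

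Without WT library 1 (edgeR), Uqcr11 (-0.41 ± 0.09, adjusted p = 0.0354), Atp5g1 (-0.33 ± 0.07, adjusted p = 0.0406) and mt-Nd6 (-0.31 ± 0.06, adjusted p = 0.0322) were also lower in GFPlow and Uqcrfs1 higher (0.42 ± 0.09, adjusted p = 0.0426). Background shares there were 3.39% lower and 2.5% higher. DESeq2 without that library called 1 higher and 17 lower (6.04% and 5.86%), and edgeR without WT library 2 called 8 higher and 92 lower (24.9% and 18.9%). Only 1 WT library then remains, and its spread is assumed to be that of the other groups. The median of nuclear members in GFPlow against WT was -1.38 with both WT libraries and -0.14 without library 1.

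Related mitochondrial genes were tested as 3 lists. Of 37 tested genes for electron carriers and further assembly factors, edgeR called none between GFPhi and GFPlow (background 2.26%). There 15 lay above 0 (background 51.2%) and 22 below (median -0.08), and 2 had an unadjusted p under 0.05 (background 11.6%). Cox10, the enzyme that starts heme A synthesis for complex IV, was the 1 gene of this list called in GFPlow against WT (background 1.08% higher), at 40.9 ± 2.18 CPM (SD, n = 3) against 15.4 and 22.7 CPM. That difference was 1.10 ± 0.22 on the log2 scale (adjusted p = 0.0378 in edgeR) and 0.85 (adjusted p = 0.0142) without WT library 1, where Cox10 was also lower in GFPhi than in GFPlow (-0.53, adjusted p = 0.0124).

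Of 78 mitochondrial ribosomal protein genes, which translate the mitochondrial messages, 47 lay above 0 in GFPhi over GFPlow (median 0.04, background 51.2%). For these genes edgeR called none (background 2.26%) and 2 had an unadjusted p under 0.05 (background 11.6%). It called 6 higher and 2 lower without WT library 1, beside 5.35% and 4.3% of all genes. Mrps6 (42.8 ± 1.44 CPM in GFPlow, 142 and 85.0 CPM in WT) and Mrpl52 (62.9 ± 2.68 CPM in GFPlow, 445 and 111 CPM in WT) were lower in GFPlow than in WT in edgeR's test, with adjusted p-values of 0.0174 and 0.0498. These are 2 of 78 genes beside a background of 2.23% lower. Without WT library 1, which leaves 1 WT library, the log2 differences were -0.98 for Mrps6 and -0.81 for Mrpl52.

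Among 28 tested genes for mitochondrial DNA expression and biogenesis, including Tfam and Polrmt, edgeR called none in any of the 3 comparisons with all 8 libraries. Over all genes it called 2.26% in GFPhi over GFPlow, 0.0% in GFPhi over WT and 3.3% in GFPlow over WT. Unadjusted p-values under 0.05 numbered 0, 7 and 6 in GFPhi over GFPlow, GFPhi over WT and GFPlow over WT, beside 11.6%, 13.7% and 25.0% of all genes. In the fit without WT library 1, edgeR called Myc, a transcription factor of growth and biogenesis, higher in GFPhi than in GFPlow (0.87, adjusted p = 0.00113) and lower in GFPlow than in WT (-0.73, adjusted p = 0.0146). Myc stood at 228 ± 25.8 CPM in GFPhi and 124 ± 6.41 CPM in GFPlow (SD, n = 3), and at 57.5 and 206 CPM in WT.

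Promoter sequence was described for 80 nuclear members matched to RefSeq (GRCm38.p6), taking 250 bases before and 50 after the start. The motifs searched on both strands were the NRF1 core GCGCATGC, GABPA CCGGAAGT, YY1 AAGATGGC and the TATA box TATAAA, factors known to bind respiratory chain promoters apart from the last. NRF1 letters were found in 12 of the 80 member promoters and 3.94% of those of 17492 genes, and YY1 letters in 11 (13.8%) and 3.57%. The YY1 letters lay after the transcription start in 9 of the 11 members (81.8%), against 50.2% of all genes with these letters. For NRF1 this held for 3 of the 12 members (25.0%, against 14.8%). GABPA letters were found in 5 (6.25%) and 5.69%, and TATA letters in 8 and 14.8%. A match is a description of these letters and not evidence of binding. The 4 promoters printed are those of Sdhaf1, the member called above, of Uqcr11, the only member among the 8 called without WT library 1 with a match, of Sdhb, the leading complex II gene, and of Ndufa3, the leading complex I gene. Ndufa3 leads complex I with the median transcript length, whereas Ndufa1 leads with principal and union lengths, and its promoter holds none of the 4 motifs. Capitals mark motif letters on either strand. Uqcr11 (chr10:80406772-80407071, - strand) holds GABPA and NRF1, Sdhb (chr4:140961021-140961320, + strand) NRF1, Ndufa3 (chr7:3617123-3617422, + strand) TATA and YY1, and Sdhaf1 (chr7:30322326-30322625, - strand) none of the 4.
Sdhaf1: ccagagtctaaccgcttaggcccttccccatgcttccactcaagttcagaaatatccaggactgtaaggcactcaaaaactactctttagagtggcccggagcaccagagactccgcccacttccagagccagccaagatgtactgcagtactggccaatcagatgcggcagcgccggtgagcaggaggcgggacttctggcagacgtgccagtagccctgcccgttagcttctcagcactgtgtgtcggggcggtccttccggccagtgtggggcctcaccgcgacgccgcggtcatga
Uqcr11: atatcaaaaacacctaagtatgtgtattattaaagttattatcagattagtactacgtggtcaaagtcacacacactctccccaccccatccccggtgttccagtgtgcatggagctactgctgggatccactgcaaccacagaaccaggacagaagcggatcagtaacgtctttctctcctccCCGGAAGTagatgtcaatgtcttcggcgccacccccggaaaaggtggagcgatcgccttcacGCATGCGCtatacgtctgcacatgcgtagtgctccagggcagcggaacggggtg
Sdhb: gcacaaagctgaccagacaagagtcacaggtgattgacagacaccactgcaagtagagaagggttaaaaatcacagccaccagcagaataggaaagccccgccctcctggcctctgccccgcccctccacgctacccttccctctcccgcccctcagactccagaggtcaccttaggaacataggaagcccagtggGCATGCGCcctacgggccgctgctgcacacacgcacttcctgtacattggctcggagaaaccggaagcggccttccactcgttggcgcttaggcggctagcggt
Ndufa3: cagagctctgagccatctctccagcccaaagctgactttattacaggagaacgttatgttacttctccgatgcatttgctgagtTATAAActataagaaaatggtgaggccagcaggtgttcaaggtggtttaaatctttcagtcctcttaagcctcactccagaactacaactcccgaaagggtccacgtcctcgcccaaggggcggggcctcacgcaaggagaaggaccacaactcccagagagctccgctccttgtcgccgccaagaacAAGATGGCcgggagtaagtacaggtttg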

How the data were processed

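RNA of sorted CD4 T cells was sequenced in 8 libraries (SMART-Seq HT cDNA, Nextera XT). The authors deposited a table of raw read counts per gene. Per the submitters' processing notes, HISAT2 2.1.0, SAMtools 1.9, HTSeq 0.11.2, edgeR, R 4.0 and GRCm38 were used. The sources used here do not state their roles, the annotation, the strand setting or the treatment of reads with several places. Full-length cDNA counts grow with transcript length, so the leading members of each complex were ranked per length. Isoforms, ratios of sums and nuclear copies were also compared in CPM or reads, which take no account of length. All 8 columns matched a sample.

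Counts were tested with edgeR 4.0.16 in R 4.3.3 (quasi-likelihood, TMM, filterByExpr, robust, 1 mean per group over 8 libraries). P-values were two-sided and Benjamini-Hochberg adjusted over the 18851 genes tested, with a threshold of 0.05. The fit was also run on simulated counts for GFPhi against GFPlow, with the spread taken from the transgenic libraries alone. Since this leaves out the spread between the WT libraries, it does not show how the fit of all 8 libraries performs. Alternatives used DESeq2 1.42.0, limma 3.58.1 (voom with sample weights), other scalings and filters, a length trend, a replicate block and fewer libraries. The replicate block was a term for the library number, shared by all groups. It thus joined WT libraries to transgenic libraries of the same number, although no label links them. Fits with a length trend or the replicate block without WT library 1, and the principal transcript length, were chosen after seeing the data. TPM used the median length of a gene's protein coding transcripts in GENCODE vM21, which held 54808 of the identifiers. Log2 ratios of each WT library used log2 CPM with a prior count of 2.

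The members and lists were chosen with earlier results of these data known. Named were members past the threshold or with the 5 smallest p-values, the 3 leading nuclear members of each complex, mitochondrially encoded members, isoform groups, untested members, and up to 4 genes of each further list. Uqcrfs1 and the genes called only without WT library 1 were named after their values were seen. Python 3.11.15 and matplotlib 3.10.9 made the summaries and figures.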

Additional observations from a re-analysis of the deposited data

How the results depend on the processing

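Counts of called members moved with the WT libraries and the tool. The shares over all genes for DESeq2, voom, fits without a WT library and only the libraries compared stand beside their counts in the Results. For the filter, length-trend and replicate-block fits and those without a transgenic library, such shares are not given. The counts below describe how the fits differ and are not a result about the members. Between GFPhi and GFPlow, where no member was called, a filter of 5 CPM in 2 libraries gave 1, DESeq2 1 and voom 2. Leaving out single libraries gave 0 to 9. Without WT library 1, DESeq2 gave 20 (18 higher and 2 lower), length trends in the offsets 7 (3 higher and 4 lower) and the replicate block 5. With only the libraries compared there were 8, and 5 with the replicate block added. Between GFPhi and WT, where no member was called, DESeq2 gave 55 and leaving out single libraries 0 to 98. Between GFPlow and WT, where 1 was called, DESeq2 gave 62, voom 0 and leaving out single libraries 0 to 100. DESeq2 without WT library 1 gave 18, length trends without it 2, and only the libraries compared 0, with or without the replicate block. The replicate block over all 8 libraries gave 0 calls in each of the 3 comparisons. Since it joins WT and transgenic libraries by numbers that no label links, this does not test how firm the calls are. Same-numbered GFPhi and GFPlow libraries correlated at 0.0671, 0.0662 and 0.149 in their deviations from the group means. Each correlated best with its own number, and library 3 of both groups held Xist and no Ddx3y. This is a hint from the data, not the design, and the numbers were not taken as pairs. Sdhaf1 was called in 10 of 24 settings between GFPhi and GFPlow (log2 fold change 0.76 to 0.96) and in 18 of 24 between GFPlow and WT (-1.81 to -1.21).

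The nuclear median between GFPhi and GFPlow became 0.0199 with length trends and 0.021 with these and without WT library 1, and the mitochondrial median -0.1142 and -0.0978. Leaving out single libraries moved the mitochondrial median from -0.0397 to 0.0713. Against WT, leaving out single libraries moved the GFPhi medians from -1.8781 to -0.0392 (nuclear) and -1.6484 to -0.1953 (mitochondrial), and the GFPlow medians from -1.9494 to -0.1416 and -1.658 to -0.1856. Without WT library 1, the GFPhi nuclear and mitochondrial medians were -0.0395 and -0.1957 in DESeq2, -0.0095 and -0.2047 with length trends, and -0.0515 and -0.1564 with the replicate block. The GFPlow medians were -0.1427 and -0.1869 in DESeq2, -0.0381 and -0.0811 with length trends, and -0.1458 and -0.1854 with the replicate block. With union exon lengths the Spearman correlation with length was nearer 0, at -0.446 (WT library 1) and -0.17 (WT library 2). The mitochondrial over nuclear TPM ratio of the transgenic libraries, 0.58, became 1.2 with union lengths and 0.674 with principal transcripts. Upper-quartile scaling shifted all genes by a median of -0.135 and -0.147 in GFPhi and GFPlow against WT.

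Some single genes changed sign. Between GFPhi and GFPlow, mt-Co1 became 0.0025 without GFPhi library 3 and 0.0182 without GFPlow library 1 (leave-one-out range -0.0784 to 0.0182), and mt-Nd4 -0.1142 with length trends (-0.0978 also without WT library 1). The length trend itself moved all genes by a median of -0.11 in this comparison. mt-Cytb, at 0.00, became -0.0094 with RLE scaling and in DESeq2, -0.1314 with length trends, -0.0397 without GFPhi library 2, -0.0001 and -0.0064 without GFPlow libraries 2 and 3, and -0.0025 without WT library 1 (leave-one-out range -0.0397 to 0.0485). Also without WT library 1 it was -0.0015 in DESeq2, -0.1178 with length trends and -0.0042 with the replicate block. Without WT library 1, Uqcrfs1 in GFPhi against WT became 0.1841, 0.1837 in DESeq2, 0.1796 with length trends and 0.2474 with the replicate block. In GFPlow against WT it became 0.4185, 0.4171, 0.5365 and 0.4809 in the same order, and 0.0305 in voom with both WT libraries. Leaving out single libraries moved it from -0.794 to 0.1841 and from -0.5688 to 0.4185. With length trends and without WT library 1, mt-Nd1 and mt-Nd2 in GFPlow against WT became 0.0107 and 0.0823. The cause of these changes was not tested. Of the remaining values of single genes and complexes under an alternative, 1215 were unchanged, 107 passed the threshold newly, 6 lost it and 49 moved. For single genes, unchanged means the same sign and the same side of the threshold. For medians of complexes it means a shift smaller than the spread between libraries (SD), and moved means a larger one.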
